A study of Mus musculus with 2 samples.

Results

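The mouse genes named Zfp followed by a number encode zinc finger proteins, and they are described here in embryonic stem cells that were treated with Idoxuridine or with its solvent. Of 333 genes with such a name, 243 had at least 200 unique molecular identifiers (UMIs, each standing for 1 captured transcript end) over both libraries, out of 10380 genes that reached this number and 27998 genes in the tables. Zfp42, Zfp36 and Zfp57 were left out by the rule that chose the members. The members just inside the minimum were Zfp579 with 200 UMIs, Zfp640 with 203 and Zfp709 with 209, and the genes just outside were Zfp362 and Zfp109 with 193 each and Zfp846 with 192. A low gene that is high in 1 library can reach the minimum through that library alone, so the 243 members are not the whole name family. The other 90 genes summed to 120 counts per 1000000 UMIs (CPM) in Idoxuridine and 96.2 CPM in DMSO, and 8 of them had no UMI in either library.

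The cells were E14, a male mouse embryonic stem cell line whose strain label is C57BL/6, grown feeder-free on gelatin in ESGRO-2i medium. One library came from cells given Idoxuridine, an iodinated thymidine analogue that is incorporated into DNA, for 24 h at 10 µM by the treatment label, whereas a protocol field gives the number in mM. The other came from cells given DMSO for 24 h. Both treatments took place in 2i/LIF, and single-cell RNA was captured with 10x Genomics 3′ V2 chemistry, to test an enhancer of expression noise. Each treatment had 1 library, so no difference below has a replicate check, and the 95% intervals given in parentheses reflect counting error alone.

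Most zinc finger genes of this family encode repeated Cys2His2 fingers, each of which contacts a few bases of DNA. A large subgroup joins these fingers to a KRAB box, which recruits the co-repressor Trim28 and through it Setdb1, a histone H3 lysine 9 methyltransferase, and Hp1 proteins. In embryonic stem cells KRAB zinc finger proteins are known for silencing endogenous retroviruses and for holding imprints. Their genes lie in tandem clusters that arose by duplication. Members without a KRAB box are more varied, and include factors of the stem cell network, of ribosome assembly and of the spindle.

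The Idoxuridine library held 742 cells with a median of 37425 UMIs (range 9295 to 130052), against 811 DMSO cells with a median of 44502 UMIs (range 14814 to 136231), and 2 barcodes occurred in both libraries. Stem cell identity was checked with Pou5f1, Sox2, Nanog, Esrrb, Klf4, Tdgf1 and Dppa5a. These 7 genes were detected in both libraries and summed to 3741 CPM in Idoxuridine and 5208 CPM in DMSO. The 7 fibroblast markers summed to 12.4 CPM in Idoxuridine and 1.40 CPM in DMSO, where Col1a1 and Col3a1 were at 0, and the 5 primitive endoderm markers summed to 14.2 CPM in Idoxuridine and 2.55 CPM in DMSO. The nuclear RNA Malat1, often used as a sign of RNA quality, took a median of 0.391% of a cell's UMIs in Idoxuridine and 0.219% in DMSO. The part of the marker RNAs in the results was not tested; results within groups of cells of like Malat1 share are given below.

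Some members carry much of what follows, and their promoter sequences are shown for that reason. Zfp677 and Zfp54 are neighbours on chromosome 17 and were higher in Idoxuridine, Zfp936 and Zfp819 lie in 1 cluster on chromosome 7 and were lower, and Zfp296, a partner of the reprogramming factors, was the higher member with most UMIs. Each window runs from 250 bases before to 50 bases after a transcript start and is credited to RefSeq on GRCm38.p6, the assembly of the deposited mm10 counts. All 5 windows lie on the + strand: chr17:21383498-21383797 for Zfp677, chr17:21423245-21423544 for Zfp54, chr7:43177340-43177639 for Zfp936, chr7:43606919-43607218 for Zfp819 and chr7:19577037-19577336 for Zfp296. Of the 3 starts listed for Zfp54, the one with most CpG is shown. Capitals mark the dinucleotide CG, which reads the same on both strands and is the site of DNA methylation.

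Zfp677: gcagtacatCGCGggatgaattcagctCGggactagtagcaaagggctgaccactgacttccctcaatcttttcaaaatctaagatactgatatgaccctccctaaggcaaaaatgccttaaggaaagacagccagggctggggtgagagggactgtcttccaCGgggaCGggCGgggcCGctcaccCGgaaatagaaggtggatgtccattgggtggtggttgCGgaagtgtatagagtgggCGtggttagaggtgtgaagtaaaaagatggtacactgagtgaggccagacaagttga

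Zfp54: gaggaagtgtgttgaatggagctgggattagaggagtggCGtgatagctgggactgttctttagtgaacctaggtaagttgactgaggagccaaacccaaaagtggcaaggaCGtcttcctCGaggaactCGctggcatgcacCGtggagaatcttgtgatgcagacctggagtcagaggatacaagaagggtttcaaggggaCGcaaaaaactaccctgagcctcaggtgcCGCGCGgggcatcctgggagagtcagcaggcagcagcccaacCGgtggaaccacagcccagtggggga

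Zfp936: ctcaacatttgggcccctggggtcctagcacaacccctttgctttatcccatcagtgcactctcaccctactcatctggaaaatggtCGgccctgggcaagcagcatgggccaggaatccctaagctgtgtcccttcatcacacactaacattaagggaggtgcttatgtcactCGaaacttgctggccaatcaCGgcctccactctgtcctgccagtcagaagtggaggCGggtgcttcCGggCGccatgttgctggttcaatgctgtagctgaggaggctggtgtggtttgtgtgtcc

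Zfp819: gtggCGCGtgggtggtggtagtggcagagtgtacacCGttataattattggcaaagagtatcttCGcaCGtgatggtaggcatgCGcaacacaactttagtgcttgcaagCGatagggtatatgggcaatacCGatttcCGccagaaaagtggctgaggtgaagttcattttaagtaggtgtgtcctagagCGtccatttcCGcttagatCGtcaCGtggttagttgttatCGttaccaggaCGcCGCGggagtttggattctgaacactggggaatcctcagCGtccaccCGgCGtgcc

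Zfp296: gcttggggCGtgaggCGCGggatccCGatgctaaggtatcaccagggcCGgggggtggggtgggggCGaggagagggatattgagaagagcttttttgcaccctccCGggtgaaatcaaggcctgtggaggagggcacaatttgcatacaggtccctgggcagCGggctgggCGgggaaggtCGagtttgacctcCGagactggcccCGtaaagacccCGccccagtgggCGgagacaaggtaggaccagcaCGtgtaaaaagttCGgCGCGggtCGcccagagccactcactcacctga

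Zfp936 had 6 CG in its window, Zfp677 and Zfp54 had 10 each, Zfp296 had 19 and Zfp819 had 20. Of all 32851 RefSeq promoter windows, 94.6% held at least 1 CG and 43.5% at least 10, with a median of 7. Those windows include every listed start of every gene, whatever its level. With 1 window per gene, the one with most CG, the median was 15 over 201 members. It was 23 over 7770 other genes with at least 200 UMIs. Global alignment gave 52.2% identical columns between Zfp677 and Zfp54 and 50.9% between Zfp936 and Zfp819, and the 10 pairs among the 5 windows ranged from 46.1% to 52.2%. CG number therefore did not separate the higher pair from the lower pair in these windows.

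The question put to the family was whether its members differed in level between the treated and the solvent library. The largest ratio belonged to Zfp677, a gene with a KRAB box match and 16 finger matches, at 5.91 CPM (5.08 to 6.84) in Idoxuridine and 0.93 CPM (0.66 to 1.28) in DMSO, a log2 ratio of 2.67 (2.15 to 3.21) from 180 UMIs in Idoxuridine and 38 in DMSO. Zfp467, a factor known from adipocyte and bone cell fate choice, stood at 7.52 CPM in Idoxuridine and 1.76 CPM in DMSO, a log2 ratio of 2.09 (1.70 to 2.50). Lowest was Zfp819, a KRAB protein linked to retroelement repression in pluripotent cells, at 4.83 CPM (4.08 to 5.67) in Idoxuridine against 10.5 CPM (9.49 to 11.5) in DMSO, a log2 ratio of -1.12 (-1.40 to -0.84). In this family both directions thus occurred among genes of low level.

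A member was counted as higher or lower when the libraries were at least 0.5 log2 apart with Poisson intervals that did not overlap. By this rule 29 of 243 members (11.9%) were higher in Idoxuridine and 10 (4.12%) were lower, and 204 were neither. Of all 10380 genes, 18.8% were higher and 4.2% were lower by the same rule. The share of lower members was thus near that of all genes and the share of higher members was below it. Below the minimum, with at least 1 and under 200 UMIs, 14.6% of 82 Zfp genes and 25.2% of 8913 genes in all were higher. The median log2 ratio was 0.08 over the members and 0.09 over all genes, and the members ranged from -1.12 to 2.67. Scaling matters here, since TMM factors gave 19 higher (7.82%) and 12 lower members (4.94%), beside 15.6% and 6.15% of all genes. TMM over all genes gave 11 higher (4.53%) and 30 lower members (12.3%), beside 12.1% and 12.2% of all genes. Under that scaling the median of all genes itself moved to -0.12. A scaling factor moves every gene alike, so it cannot change the gap of 0.01 log2 (-0.01) between these medians, while a minimum of 500 UMIs changed the gap to 0.02 and equal weight to cells grouped by Malat1 share, as described below, to -0.05.

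**Figure D1:**
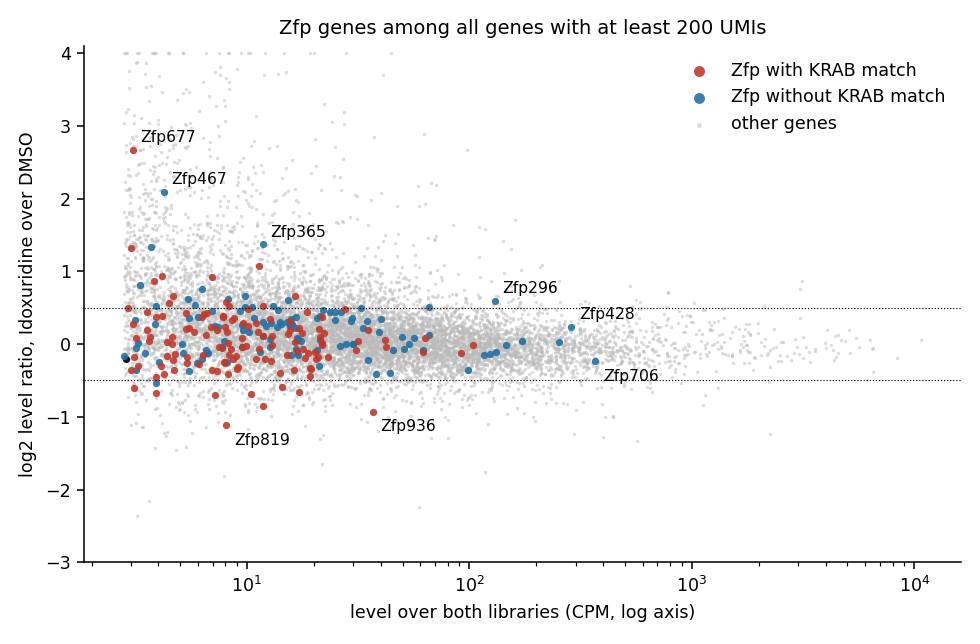
Log2 ratio of level, Idoxuridine over DMSO, against level over both libraries in CPM (log axis) for the 10380 genes with at least 200 UMIs, with Zfp genes in red (KRAB match) or blue (no match), the transcribed pseudogene Zfp640, which had no coding sequence to search, in black, and dotted lines at 0.5 and -0.5. Ratios above 4 are drawn at 4. Zfp genes sit mostly at low levels, and Zfp677 has the highest ratio among them at 2.67.

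Among the other members higher in Idoxuridine, Zfp365, whose human counterpart is known for protecting fragile sites and telomeres, stood at 18.1 CPM (16.6 to 19.7) against 7.01 CPM (6.22 to 7.87) in DMSO, a log2 ratio of 1.37. Zfp750, a driver of epidermal differentiation, stood at 5.65 CPM in Idoxuridine and 2.23 CPM in DMSO, and its log2 ratio was 1.34. Neither gene had a match to the classical finger pattern. Zfp454, a KRAB gene on chromosome 11, stood at 16.2 CPM in Idoxuridine and 7.72 CPM in DMSO, a log2 ratio of 1.07. The ratios of Zfp948, Zfp882, Zfp52, Zfp236, Zfp37 and Zfp667 lay between 0.67 and 0.93. The remaining 17 higher members, Zfp296 among them, lay between 0.50 and 0.66. Of the 29, 23 were under 10 CPM in DMSO, while 122 of all 243 members stood at 10 CPM or more there. A low DMSO level itself raises the ratio by which these genes were picked, so this count is not a separate trait of theirs. Their median was 576 UMIs over both libraries, beside 800 over all members.

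The 10 lower members were nearly all KRAB genes. Zfp936 had most UMIs of them and stood at 24.2 CPM (22.5 to 26.0) in Idoxuridine and 46.0 CPM (44.0 to 48.2) in DMSO, a log2 ratio of -0.93 (-1.05 to -0.80). Zfp141 stood at 8.08 CPM in Idoxuridine and 14.6 CPM in DMSO, with a log2 ratio of -0.86. Behind it came Zfp788 (-0.70), Zfp184 (-0.68), Zfp811 (-0.67), Zfp59 (-0.66), Zfp764 (-0.60) and Zfp931 (-0.58). Zfp827, whose human counterpart brings the NuRD complex to telomeres, was the 1 lower member without a KRAB match, at 3.12 CPM in Idoxuridine and 4.51 CPM in DMSO. Of these 10 genes, 6 lie on chromosome 7, which holds 65 of the 243 members and also 6 of the 29 higher ones. The last 400 bases of Zfp59 share 29.7% of their 90-base windows with another gene, so its UMIs could be split between copies.

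**Figure D2:**
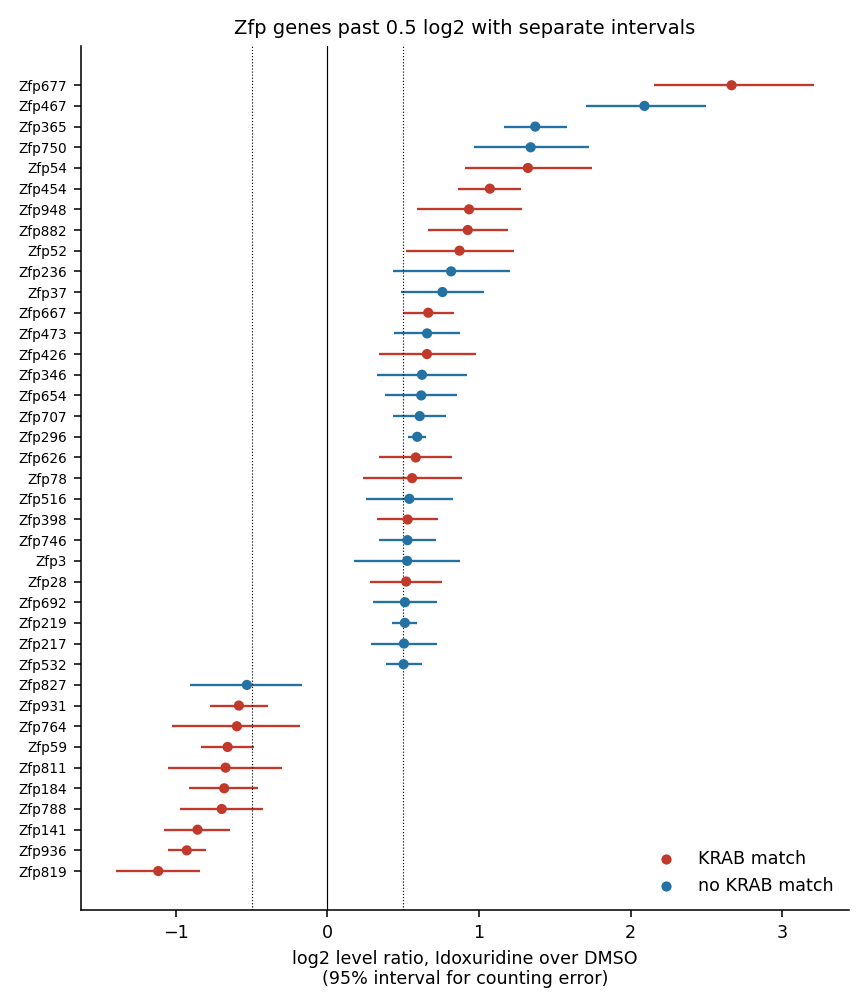
Log2 ratio of level, Idoxuridine over DMSO, of the 39 Zfp genes past 0.5 log2 with separate intervals, with bars for the 95% counting interval, in red with and blue without a KRAB match. The 29 higher members run up to 2.67 and the 10 lower members down to -1.12, and 9 of the 10 lower ones are red.

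The calls depended in part on how cells were weighed. All cells of both libraries were also split in 5 equal groups by Malat1 share, and each group was given equal weight. Then 18 members (7.41%) were higher and 12 (4.94%) lower, beside 15.1% and 4.74% of all genes. The median of the members was 0.00, beside 0.05 over all genes. Across 8 alternatives that kept the members and the 0.5 log2 size, 10 of the 29 stayed higher under every one, which were Zfp677, Zfp467, Zfp365, Zfp750, Zfp54, Zfp454, Zfp948, Zfp882, Zfp52 and Zfp37. Of the 10 lower members 7 stayed lower under all 8, which were Zfp819, Zfp936, Zfp141, Zfp788, Zfp184, Zfp59 and Zfp931. None of the 8 varied the minimum of UMIs, so they do not test how genes came to be members. Among the 10 that stayed higher, Zfp677, Zfp467, Zfp750 and Zfp54 were below the minimum on DMSO UMIs alone. These genes had more UMIs in Idoxuridine, which helped them reach the minimum.

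Zinc finger genes are low genes, so the family was next set beside other genes of the same abundance. The members had a median of 800 UMIs over both libraries, against 1880 for all genes, and 82.7% of them lay below the median gene by abundance. In the lowest eighth of genes, with 200 to 405 UMIs, 20.4% of 54 members were higher in Idoxuridine, against 46.9% of 1243 other genes. Their median log2 ratio was 0.03, against 0.47 for the others. In the second eighth 13.1% of 61 members and 34.8% of other genes were higher, with medians of 0.13 and 0.28.

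In the third eighth the medians were alike, at 0.23 for 45 members and 0.21 for other genes, while 15.6% and 26.0% were higher. In the fourth eighth none of 41 members was higher, against 17.7% of other genes. The interquartile range of the ratios was also narrower for members in each class, for example 0.62 against 1.05 log2 in the lowest. Set against the median of other genes in its own class, the median member lay 0.10 log2 lower (-0.10). The classes were set on UMIs of both libraries together, so a gene near silence in DMSO enters the lowest class only through a high Idoxuridine count, which raises the share of higher calls there. In that class 1 of the 54 members and 3.62% of the other genes were under 1 CPM in DMSO. Genes somewhat above 1 CPM in DMSO, such as Zfp54, can enter in the same way, so these shares do not measure the size of that effect. Lower calls were 5.56% of members and 4.83% of other genes in the lowest class.

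**Figure D3:**
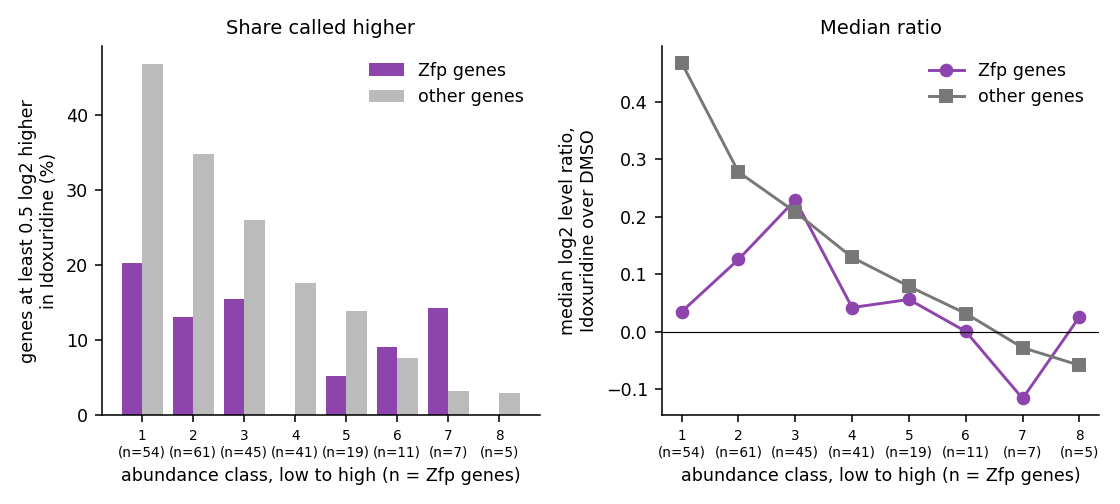
Share of genes called higher in Idoxuridine (left, in percent) and median log2 ratio, Idoxuridine over DMSO (right), by eighths of all genes from low to high UMIs, for Zfp genes (purple) and other genes (grey). In the lowest eighth 20.4% of Zfp genes stand beside 46.9% of other genes, and the 3 highest classes hold 11, 7 and 5 members.

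Zinc finger families with other partner domains were set beside these values. Of 28 genes named Zbtb, whose fingers are joined to a BTB domain, 6 (21.4%) were higher in Idoxuridine and 1 (3.57%) was lower, near the 18.8% and 4.2% of all genes, with a median log2 ratio of 0.24. Of 7 genes named Zscan, with a SCAN domain, 1 was higher and the median was 0.03.

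A KRAB box match was found in 130 members and not in 112. The median log2 ratio was 0.01 with a match, where 12 members (9.23%) were higher and 9 (6.92%) lower in Idoxuridine. It was 0.17 without a match, where 17 (15.2%) were higher and 1 (0.89%) was lower. Of all genes 18.8% were higher and 4.2% lower, so the higher share was below that of all genes in both groups. Under TMM factors over all genes both medians fell below 0, to -0.20 with a match and -0.04 without one. Members with a match had a median of 12 finger matches and those without had 7.5, with a maximum of 33 in Zfp462. The groups also differed in abundance, with a median of 618.5 UMIs over both libraries with a match and 1081.5 without one. Summed over genes, the KRAB members stood at 1743 CPM (1728 to 1758) in Idoxuridine and 1747 CPM (1734 to 1760) in DMSO, so their sums did not differ beyond counting error under this scaling. The log2 ratio of these KRAB sums was -0.09 under TMM scaling and -0.21 under TMM over all genes, both outside that error. Members without a match summed to 3758 CPM (3736 to 3779) in Idoxuridine and 3559 CPM (3540 to 3577) in DMSO, a log2 ratio of 0.08 that turned to -0.00338 under TMM scaling and to -0.13 under TMM over all genes. All 243 members together summed to 5503 CPM (5477 to 5529) in Idoxuridine against 5309 CPM (5286 to 5331) in DMSO; the log2 ratio was 0.05 and turned to -0.03 under TMM scaling. A broader pattern that adds 8 members to the KRAB group gave medians of 0.01 and 0.18.

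Promoter CG number differed between the same subgroups. For each gene the window with most CG was used. The median was 15 over the 201 members with a window, 11.5 with a KRAB match, 22.5 without one and 23 over 7770 other genes. With these members split in 3 equal groups, the median log2 ratio was 0.23 in the group with most CG, from 20 to 54 per window, against 0.01 in the middle group and -0.01 in the lowest. Other genes in the same ranges of CG had medians of 0.10, 0.03 and 0.14 from most to fewest, so the order seen in members was not the order seen in other genes.

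Within the 5 groups of cells by Malat1 share, from low to high, the summed Zfp level had a log2 ratio of 0.07, 0.06, 0.02, -0.04 and -0.05. The KRAB members' sum went through 0.02, 0.00, -0.07, -0.19 and -0.17 over the same groups. The lowest group held 67 Idoxuridine and 244 DMSO cells and the highest held 251 Idoxuridine and 60 DMSO cells.

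Genes of the proteins through which KRAB acts were taken next. Of 17 co-repressor genes 2 (11.8%) were higher in Idoxuridine and none was lower, with a median log2 ratio of 0.03. These are mostly abundant genes with a median of 14173 UMIs, and in the highest eighth of genes, which starts at 10246 UMIs, 2.94% of other genes were higher and 5.18% lower. Not all 17 lie in that eighth. Of the 2 higher genes, Cbx3 does, while Atf7ip lies in the sixth eighth, where 7.69% of other genes were higher. Trim28, the scaffold that binds the KRAB box, stood at 544 CPM in Idoxuridine and 602 CPM in DMSO, and Setdb1 at 76.6 CPM in Idoxuridine and 74.97 CPM in DMSO. Atf7ip, which stabilises Setdb1, stood at 67.0 CPM (64.1 to 70.0) in Idoxuridine and 38.8 CPM (36.9 to 40.8) in DMSO, a log2 ratio of 0.79. Cbx3, which encodes Hp1 gamma, stood at 246 CPM in Idoxuridine and 164 CPM in DMSO, a log2 ratio of 0.58. Under TMM factors over all genes the median of the 17 was -0.18.

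Members of known role were then taken by function. In the stem cell group 2 of 6 genes were higher in Idoxuridine, beside 18.8% of all genes. These were Zfp296 and Zfp217, and neither kept the call under all 8 alternatives. Zfp296 lies in the seventh eighth by abundance, where 3.18% of other genes were higher, and Zfp217 in the second, where 34.8% were. Zfp296 stood at 161 CPM (157 to 166) in Idoxuridine and 107 CPM (104 to 110) in DMSO, a log2 ratio of 0.59. Zfp217, an oncogene product that also limits RNA methylation, stood at 11.8 CPM in Idoxuridine and 8.28 CPM in DMSO, a log2 ratio of 0.51. Zfp706, known to promote exit from self-renewal and the member with most UMIs, stood at 333 CPM (327 to 340) in Idoxuridine and 393 CPM (387 to 399) in DMSO, with a log2 ratio of -0.24 that is short of the size threshold. Of the 6 members with most UMIs, Zfp330 stood at 126 CPM in Idoxuridine and 136 CPM in DMSO, and Zfp428, Zfp207, Zfp106 and Zfp638 are given below. Zfp281, which acts in the passage from the naive to the primed state, had a ratio of 0.10, Zfp143, an activator of small nuclear RNA and housekeeping promoters, one of -0.04, and Zfp462, a chromatin regulator, one of 0.33.

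Of 6 listed KRAB repressors with known targets, 5 were members and Zfp708 was below the minimum. Zfp568, which represses a placental Igf2 transcript, was the KRAB member with most UMIs and stood at 103 CPM (99.8 to 107) in Idoxuridine and 105 CPM (101 to 108) in DMSO. Zfp809, which silences murine leukaemia proviruses, stood at 10.7 CPM in Idoxuridine and 8.75 CPM in DMSO, a log2 ratio of 0.29. Zfp445, which protects imprints, had a ratio of -0.20 and Zfp932, which binds endogenous retroviruses, one of 0.14. Zfp819 was thus the 1 gene of this group past the size threshold.

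Among factors of RNA, ribosome and spindle function 1 of 10 was higher and none was lower. Their median of 3809 UMIs lies in the sixth eighth by abundance, where 7.69% of other genes were higher and 4.20% lower, but the genes span several classes. The higher gene was Zfp346, which binds double-stranded RNA, at 6.80 CPM in Idoxuridine and 4.41 CPM in DMSO. Zfp346 lies in the lowest eighth, where 46.9% of other genes were higher. Zfp207, a spindle and checkpoint protein, stood at 254 CPM in Idoxuridine and 249 CPM in DMSO, Zfp106, an RNA-binding protein, at 175 CPM in Idoxuridine and 170 CPM in DMSO, and Zfp638, which silences unintegrated retroviral DNA in human cells, at 146 CPM in Idoxuridine and 147 CPM in DMSO. Zfp622, a ribosome assembly factor, had a log2 ratio of -0.14, Zfp593, also of ribosome assembly, one of -0.08, and Zfp598, the ubiquitin ligase of collided ribosomes, one of -0.08. Zfp326, of a complex that couples transcription to splicing, had a ratio of 0.31, Zfp830 one of -0.07 and Zfp91, a ubiquitin ligase, one of 0.08.

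Of 14 listed factors of chromatin, signalling and development 9 were members, with Zfp219 higher and Zfp827 lower in Idoxuridine. Each is 11.1% of the 9, beside 18.8% of all genes higher and 4.2% lower. Zfp219, a partner of Sox9 in cartilage, stood at 79.0 CPM (75.8 to 82.2) in Idoxuridine and 55.4 CPM (53.2 to 57.7) in DMSO. Zfp410, known to act mainly by activating Chd4, stood at 27.7 CPM in Idoxuridine and 27.8 CPM in DMSO, while Chd4 itself, a NuRD remodeller, stood at 290 CPM in Idoxuridine and 209 CPM in DMSO, a log2 ratio of 0.47. The ratio was 0.45 for Zfp451, a SUMO ligase, 0.36 for Zfp318, a regulator of immunoglobulin transcript choice, 0.23 for Zfp148, -0.08 for Zfp335, -0.30 for Zfp704 and -0.35 for Zfp292. Zfp292 stood at 84.7 CPM in Idoxuridine and 108 CPM in DMSO.

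Position along the chromosomes was taken from GENCODE M21 on GRCm38. Chromosome 7 holds 65 of the members and chromosome 17 holds 36. Runs of at least 3 members with starts at most 1 Mb apart made 22 clusters with 140 members, of which 14 (10.0%) were higher and 7 (5.00%) lower in Idoxuridine. Outside clusters 14.6% of members were higher and 2.91% lower, and of all genes 18.8% and 4.2%. The median log2 ratio was 0.04 in clusters and 0.12 outside them, which TMM factors over all genes turned to -0.17 and -0.09, and 12 clusters held no member past the threshold. Of 130 KRAB members 99 lay in clusters, against 40 of 112 without a match. The order was not the same in these 2 groups. With a KRAB match 11.1% of 99 members in clusters and 3.23% of 31 outside were higher, with medians of 0.01 and -0.02. Without a match 7.50% of 40 members in clusters and 19.4% of 72 outside were higher, with medians of 0.07 and 0.23.

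One cluster, at chr7:41633203-43618285, held 4 of the 10 lower members. Along the chromosome its genes were Zfp788 (-0.70), Zfp141 (-0.86), Zfp936 (-0.93), Zfp715 (0.21), Zfp719 (0.19) and Zfp819 (-1.12), all with a KRAB match. The 6 genes summed to 56.1 CPM in Idoxuridine and 91.7 CPM in DMSO. The 2 genes that were not lower lie between Zfp936 and Zfp819, so the lower members did not form 1 unbroken run. Its 4 lower genes kept that call under all scalings run and under equal weight to the Malat1 groups.

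The largest cluster, at chr17:21008903-23599487, held 20 members with a median of 0.04. Its 4 higher members lay near one end, where Zfp677 (2.67) and Zfp54 (1.32) were followed by Zfp51 (-0.25) and Zfp53 (0.04) and then by Zfp52 (0.87) and Zfp948 (0.93). Zfp54 stood at 4.597 CPM (3.87 to 5.42) in Idoxuridine and 1.84 CPM (1.44 to 2.30) in DMSO, from 140 UMIs in Idoxuridine and 75 in DMSO. Zfp51 stood at 7.36 CPM in Idoxuridine and 8.75 CPM in DMSO, and Zfp53 at 8.01 CPM in Idoxuridine and 7.77 CPM in DMSO. Genes with ratios far above 0 thus lay beside genes near 0, and the lowest ratio of this cluster was that of Zfp942 at -0.44.

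Another cluster on the same chromosome, at chr17:32765496-33631779, had all 10 of its members below 0, with a median of -0.24, from Zfp763 at -0.04 to Zfp811 at -0.67. One of the 10, Zfp811, was past the threshold. On chromosome 13, at chr13:66669928-67755228, 8 of 10 members were below 0 with a median of -0.18, from Zfp87 at -0.31 to Zfp456 at 0.38, and none was past the threshold. Most ratios in these 2 clusters thus lay below 0, but counting intervals of the single genes are not given here. The sums were 108 CPM in Idoxuridine and 127 CPM in DMSO for the first cluster. For the second they were 68.7 CPM in Idoxuridine and 73.4 CPM in DMSO.

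Other clusters with several higher members lay on chromosomes 6 and 7. At chr6:47835661-48623227 Zfp467 (2.09), Zfp398 (0.53) and Zfp746 (0.53) were higher and Zfp212 was at -0.08. At chr7:6131491-7209998 Zfp667 (0.67), Zfp78 (0.56) and Zfp28 (0.52) were higher and Zfp444 was at -0.22. The last group of 3 stands close to the size threshold, and so do Zfp398 and Zfp746. Of the higher genes in these 2 clusters, only Zfp467 kept that call under all 8 alternatives. The higher genes are 3 of 7 members on chromosome 6 and 3 of 8 on chromosome 7, beside 18.8% of all genes. At chr8:71882019-71993792 all 4 members were above 0, from Zfp961 at 0.09 to Zfp882 at 0.93, but Zfp961 falls below 0 under TMM over all genes and Zfp882 overlaps Zfp617 on the same strand. The cluster at chr7:27731389-28014115 held both a higher member, Zfp626 (0.58), and a lower one, Zfp59.

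**Figure D4:**
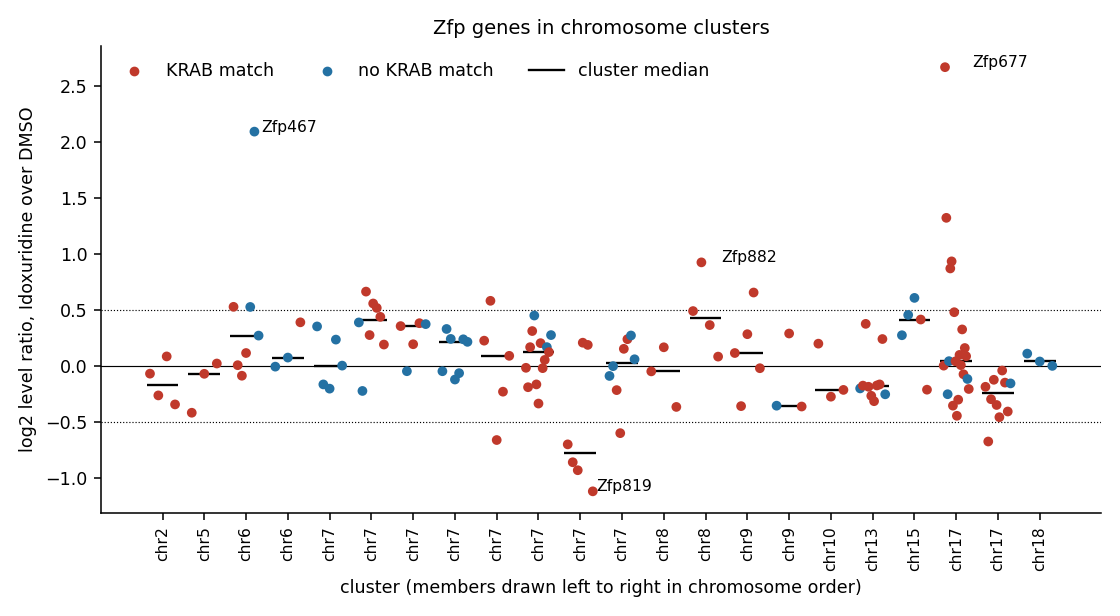
Log2 ratio of level, Idoxuridine over DMSO, of the members of each of 22 clusters, in red with and blue without a KRAB match, with black bars for cluster medians and dotted lines at 0.5 and -0.5. The chromosome 7 cluster with Zfp819 has a median of -0.78 and the second chromosome 17 cluster has all 10 points below 0, while Zfp677 stands alone at 2.67 in the first.

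In the remaining clusters the highest and lowest members stayed mostly within 0.5 log2. Above the threshold were Zfp707 at 0.61 on chromosome 15 and Zfp426 at 0.66 on chromosome 9, and below it Zfp764 at -0.60 on chromosome 7. The 13-gene cluster that holds Zfp568, at chr7:29768552-30169750, ran from Zfp383 at -0.33 to Zfp420 at 0.45 with no gene past the threshold.

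Spread between cells was measured with each cell thinned to 23500 UMIs, which kept 648 Idoxuridine cells and 764 DMSO cells and left out 94 Idoxuridine cells and 47 DMSO cells. The Fano factor, which divides the variance between cells by the mean UMIs, is 1 where counting alone sets the spread. Of 117 members with a thinned mean of at least 0.25 UMIs in both libraries, 80 (68.4%) had a higher Fano factor in Idoxuridine. The share over all 7316 genes measured was 79.2%. The median member had a Fano factor of 1.10 in Idoxuridine and 1.06 in DMSO, and the median log2 Fano ratio was 0.05 over the members and 0.08 over all genes.

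With measured genes split in 4 equal groups by mean, 59.2% of 71 members and 72.4% of other genes in the lowest group had a higher Fano factor in Idoxuridine. From the second to the highest group it was 84.0% of 25 members and 76.2% of other genes, 72.7% of 11 and 82.5%, and 90.0% of 10 and 86.3%, so the order of members and other genes was not the same in all groups. With a thinned mean of at least 0.5 UMIs, 81.6% of 49 members had a higher Fano factor in Idoxuridine, against 81.4% of all genes. At a minimum of 0.1 UMIs it was 64.2% of 204 members, against 77.1% of all genes. In cells of the middle 3 of the 5 groups by Malat1 share it was 69.3% of 114 members, against 71.8% of all genes. The gap between members and all genes thus depended on the minimum and on the cells used.

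Zfp428 had the largest Fano ratio, with a Fano factor of 3.74 in Idoxuridine and 1.78 in DMSO at levels of 315 CPM in Idoxuridine and 267 CPM in DMSO, a level ratio of 0.24 log2. Zfp296 followed, with 2.74 in Idoxuridine and 1.67 in DMSO. Zfp932 had 1.32 in Idoxuridine and 1.02 in DMSO, and Zfp534 had 1.54 in Idoxuridine and 1.21 in DMSO, and the ends of these genes share 41.1% and 48.9% of their windows with other genes. The lowest ratios belonged to Zfp609 (-0.14 log2), Zfp433 (-0.14), Zfp574 (-0.11) and Zfp800 (-0.10). Zfp428 and Zfp296 stood clear of the other members in both libraries. Zfp936, lower in level, had a Fano factor of 1.39 in Idoxuridine and 1.15 in DMSO.

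Summed over all 243 members, a cell held 130 ± 16.9 Zfp UMIs in Idoxuridine (SD over 648 cells) and 127 ± 14.8 in DMSO (SD over 764 cells) at the fixed depth. Of the Idoxuridine cells, 59.7% lay above the median DMSO cell by sums scaled, not thinned, to that depth. The Fano factor of this sum was 2.20 in Idoxuridine and 1.74 in DMSO, above the UMI-weighted mean over single members of 1.37 in Idoxuridine and 1.16 in DMSO. Zfp428 and Zfp296 carried much of the difference between libraries, since without them the Fano factor of the sum was 1.95 in Idoxuridine and 1.82 in DMSO. Those values remained above the mean over single members without the 2 genes, which was 1.18 in Idoxuridine and 1.11 in DMSO. Beyond counting, the coefficient of variation of the sum was 9.61% in Idoxuridine and 7.65% in DMSO, and without those 2 genes it was 8.93% in Idoxuridine and 8.34% in DMSO. For KRAB members, which hold neither gene, it was 14.7% in Idoxuridine and 13.3% in DMSO.

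**Figure D5:**
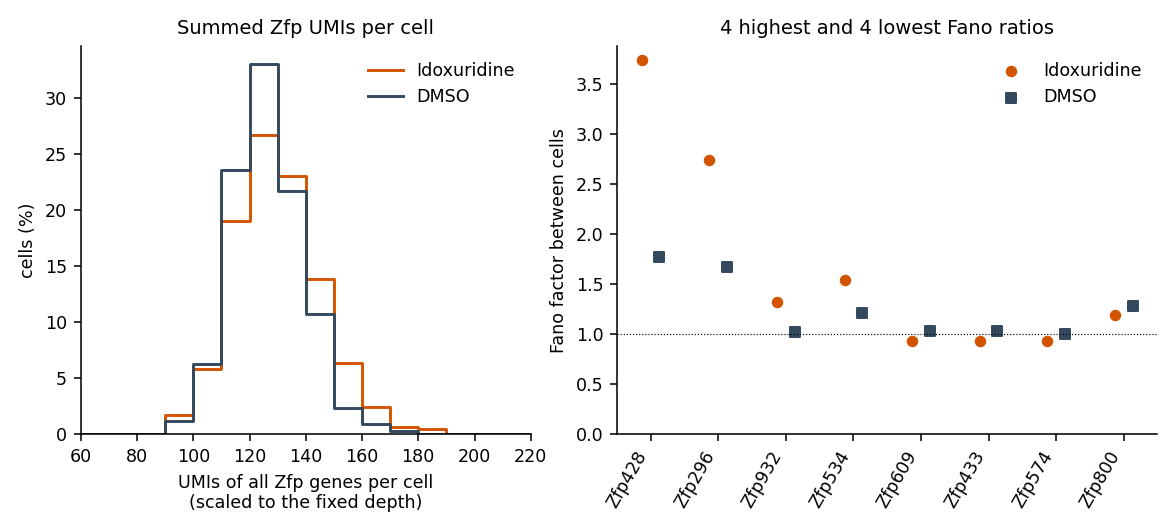
Left, distribution over cells of the summed Zfp UMIs per cell (percent of cells), for 648 Idoxuridine cells (orange) and 764 DMSO cells (dark). These sums are scaled to 23500 UMIs, not thinned, so the width of each curve differs from the SD in the text. It also depends on depth, with a median over all cells of 37425 UMIs in Idoxuridine and 44502 in DMSO. Right, Fano factors of the members with the 4 largest and the 4 smallest Fano ratios, Idoxuridine left of DMSO, with a dotted line at 1; Zfp428 and Zfp296 reach 3.74 and 2.74 in Idoxuridine, and Zfp534 follows at 1.54.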

How the data were processed

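The authors deposited raw UMI counts for each gene in each cell, not normalized, from 1 Idoxuridine and 1 DMSO library. Per the submitters' processing notes, Cell Ranger 2, Seurat and mm10 were used; barcode choice and annotation release are not given in the sources used here. Every barcode was kept, and doublets were not removed. UMIs were summed per library and scaled to CPM of 30454626 Idoxuridine and 40818344 DMSO UMIs, with exact Poisson 95% intervals and exact conditional binomial intervals of ratios, which cover counting error only. With 1 library per group no test was possible, and a size rule (0.5 log2 and separate intervals) was used. Ratios are linear CPM ratios with no pseudocount.

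Spread used the exact expectation of thinning without replacement, which was checked against random draws from DMSO cells. The size rule was checked on simulated sums. KRAB boxes were to be read from RefSeq proteins; with no protein table, GENCODE M21 coding sequences were translated and searched for a short pattern, which misses divergent boxes, and fingers were counted by the classical Cys2His2 spacing. TMM factors came from edgeR 4.0.16. A level is UMIs of transcript ends, so it does not scale with gene length. Named genes were the 12 members highest and all 10 lowest among those past the threshold, the 6 with most UMIs (Zfp706, Zfp428, Zfp207, Zfp106, Zfp638, Zfp330), 4 at each end of the Fano ratio, listed roles and each cluster's extremes; Zfp51 and Zfp53 and others beside named genes were added after their values were seen. The members and lists were chosen with earlier results of these data known. Alternatives are given in the closing section.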

Additional observations from a re-analysis of the deposited data

How the results depend on the processing

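No paired analysis was possible because each treatment had 1 library, and for the same reason no library could be left out. TMM scaling gave 19 higher members, and medians of -0.00485 for all members, -0.0725 with a KRAB match and -0.0390 in clusters, with -0.0299 for the summed level. Median of ratios gave 18 higher members (7.41%, beside 15.3% of all genes) and -0.0122, -0.0798, -0.0463 and -0.0372 for the same quantities. TMM over all genes, chosen after seeing the data, moved the median of all genes by the most and gave 11 higher and 30 lower members, -0.13 for all members, -0.20 with and -0.0430 without a KRAB match, -0.17 in and -0.0909 outside clusters, -0.16 for the sum and -0.18 for the co-repressors. Higher members numbered 15 (8.82%, beside 13.8% of all genes) at a minimum of 500 UMIs. With equal weight to the 5 Malat1 groups they numbered 18 (7.41%, beside 15.1% of all genes), and the median was 0.000975. A size of 0.25 log2 gave 66 higher (27.2%) and 21 lower members (8.64%), beside 31.1% and 13.4% of all genes. A size of 1 log2 gave 6 (2.47%) and 1 (0.41%), beside 7.15% and 0.49% of all genes. At a thinned mean of 0.5 UMIs the median log2 Fano ratio was 0.0840 and 81.6% were higher, beside 81.4% of all genes. At 0.1 UMIs the values were 0.0361 and 64.2%, beside 77.1% of all genes. In cells of the middle 3 Malat1 groups they were 0.0570 and 69.3%, beside 71.8% of all genes. Of the 39 members past the threshold 0 changed sign under the 8 alternatives that kept the members and the size. Those 8 did not vary the minimum by which genes became members. Of the other summary values under alternatives 54 stayed close to the main one, and of those for single genes 635 did and 93 moved. The cause of the shifts was not tested. Genes near 200 UMIs have wide intervals, as the plot of called members shows, so small differences were not detectable there at this depth.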

Other observations

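Among 82 genes of the name family with at least 1 and under 200 UMIs, 12 (14.6%) were at least 0.5 log2 higher in Idoxuridine with separate intervals, beside 25.2% of all 8913 genes with as few UMIs. Zfp608 stood at 1.44 CPM (1.05 to 1.94) in Idoxuridine and 0.20 CPM (0.08 to 0.39) in DMSO, from 44 UMIs in Idoxuridine and 8 in DMSO. Zfp711, on the X chromosome, stood at 2.50 CPM in Idoxuridine and 0.42 CPM in DMSO, from 76 UMIs in Idoxuridine and 17 in DMSO. Zfp703, a breast cancer oncogene in its human form, stood at 4.17 CPM (3.48 to 4.96) in Idoxuridine and 1.25 CPM (0.93 to 1.64) in DMSO. Zfp423, a neural and adipocyte regulator, stood at 2.00 CPM in Idoxuridine and 1.03 CPM in DMSO. Such genes lie outside the minimum through low UMIs in both libraries, and they were named after their values were seen.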
